A study of Mus musculus with 12 samples.

Results

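Nnt encodes the mitochondrial nicotinamide nucleotide transhydrogenase, and its transcript was followed here in 12 mouse livers through every probe set that carries Nnt as its only symbol. A single probe set of the 41345 on the array met this rule (17296489, Entrez gene 18115), and it represented 1 of 22180 genes with a single symbol. Nnt was chosen by its measured signals, which varied between mice of the same group, so its levels and its spread are described below without a test.

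The mice were male C57BL/6 animals, either wild type (WT) or deficient for Ahnak (KO), a gene for a very large scaffold protein. Feeding lasted 8 weeks, on regular chow or on a diet with 60% fat (high-fat diet, HFD), in weight-matched groups. Each of the 4 groups held 3 mice, with 1 array per liver. The age of the mice, the way the Ahnak allele was made, the C57BL/6 substrain of each group and whether WT and KO mice were littermates were not found in the labels. Nothing in the labels says how cages or litters were spread over the groups. P values set differences of group means against the spread of these 12 mice within their groups, moderated over all genes.

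The transhydrogenase spans the inner mitochondrial membrane and uses the proton gradient to pass a hydride from NADH to NADP+. The NADPH it makes in the matrix feeds the glutathione and thioredoxin systems that remove hydrogen peroxide, and liver mitochondria can also draw NADPH from isocitrate dehydrogenase, glutamate dehydrogenase, malic enzyme and folate metabolism. Nnt is widely used to tell C57BL/6 substrains apart. C57BL/6J mice carry a deletion of several exons in Nnt and lack the protein, whereas C57BL/6N mice carry the intact gene. The labels do not say which exons the probe set covers, so a signal from it does not separate the intact from the deleted transcript by itself.

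The values were log2 signals from 1.40 to 14.36, with array medians between 5.58 and 5.70. Pearson's r between arrays of one group was 0.992 to 0.994, computed over genes, which are no independent replicates. The WT HFD livers, all 3 of them, were set apart on the first principal component (32.2% of the variance), at 30.0 to 32.3 against -18.5 to -3.95 for the other 9 arrays. Hepatocyte markers averaged 13.59 to 13.69 on every array, while the averages of adipocyte (5.19 to 5.49), pancreatic acinar (4.93 to 5.31) and muscle markers (5.63 to 5.91) lay near or below the array medians. The single Ahnak probe set differed between KO and WT by -0.04 ± 0.14 (log2, SE) on chow and by -0.48 ± 0.14 on HFD (limma adjusted p = 0.0483). Which part of the gene is deleted is not given, so Ahnak was not used to check the labels. With 3 arrays a group, precision is limited by their number.

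In WT mice on chow the Nnt log2 signals were 9.81, 10.75 and 10.78 in replicates 1 to 3. In WT mice on HFD they were 10.76, 10.75 and 10.75. In KO mice on chow they were 9.69, 10.48 and 10.46, and in KO mice on HFD they were 10.19, 9.39 and 10.30. One liver therefore read far below its group mates in 3 of the 4 groups, namely WT chow 1, KO chow 1 and KO HFD 2, and the WT group on HFD held no such liver. RNA was taken from whole liver, where fewer cells of a type and less RNA per cell cannot be told apart.

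**Figure D1:**
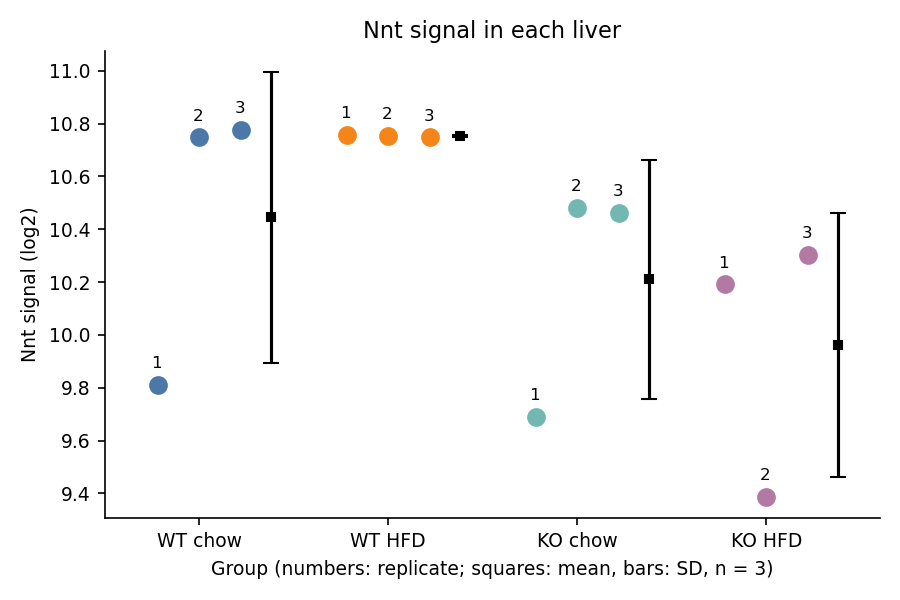
Nnt log2 signal (vertical axis) in each of the 12 livers, by group; coloured points are single arrays with their replicate numbers, black squares are group means and bars are the SD of 3 mice. WT chow 1, KO chow 1 and KO HFD 2 lie at 9.81, 9.69 and 9.39, below all other arrays, and the 3 WT HFD arrays lie between 10.75 and 10.76.

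WT chow 1 lay 0.95 below the mean of the other pair in its group on the log2 scale, a 1.94-fold lower signal. KO chow 1 lay 0.78 below its mates (1.72-fold) and KO HFD 2 lay 0.86 below (1.81-fold). The displaced liver was thus the low one in each of these 3 groups. Among the 500 genes of nearest mean signal, only 1 was displaced farther from its mates on WT chow 1, 2 on KO chow 1 and 2 on KO HFD 2. Over all 22180 genes the numbers displaced farther, in either direction, were 105, 135 and 121. The array medians of these 3 livers were 5.61, 5.63 and 5.64, inside the range of the other arrays.

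The remaining mice of each group were close to one another. WT chow 2 and 3 differed by 0.03, KO chow 2 and 3 by 0.02, and KO HFD 1 and 3 by 0.11 on the log2 scale. In WT on HFD the neighbouring arrays were only 0.0066 and 0.0020 apart. Sorted over all 12 arrays, the widest gap (0.38) lay between WT chow 1 at 9.81 and KO HFD 1 at 10.19, followed by 0.30 between KO HFD 2 and KO chow 1 and 0.27 between KO chow 2 at 10.48 and WT chow 2 at 10.75. The 5 highest arrays, WT chow 2 and 3 and the 3 of WT on HFD, lay within 0.03 of each other. No KO array reached these 5, and the higher KO arrays fell between 10.19 and 10.48.

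Group means were ordered WT on HFD (10.75 ± 0.0045, SD, n = 3), WT on chow (10.45 ± 0.55), KO on chow (10.21 ± 0.45) and KO on HFD (9.96 ± 0.50). Neighbours in this order differed by 0.31, 0.23 and 0.25, each below the pooled within-group SD of 0.43, and their arrays overlapped. KO minus WT was -0.23 ± 0.30 (log2 difference ± moderated SE of the fit) on chow and -0.79 ± 0.30 on HFD. On HFD all 3 KO arrays lay below all 3 WT arrays. Arrays did not overlap in that direction for 15.6% of all genes. HFD minus chow was 0.31 ± 0.30 for WT and -0.25 ± 0.30 for KO mice, with an interaction of -0.56 ± 0.42. These SEs are moderated by limma towards the spread of all genes, and are smaller than the pooled SD of Nnt alone would give. KO minus WT on HFD and HFD minus chow in WT share the 3 WT HFD mice.

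Single low livers set the sign of the smaller differences. Without KO chow 1, KO minus WT on chow was 0.03, and without WT chow 1 it was -0.55. Without WT chow 1, HFD minus chow in WT was -0.01 on the log2 scale, against 0.31 with it. Without KO HFD 2, HFD minus chow in KO was 0.04, and without KO chow 1 it was -0.51. KO minus WT on HFD kept its sign in each of these runs and ranged from -0.96 without KO HFD 3 to -0.51 without KO HFD 2.

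The pooled within-group SD of Nnt was 0.43, which is 4.39 times the median of 0.099 among the 500 genes of nearest mean signal. The central 90% of those genes ran from 0.050 to 0.259. Only 4 of the 500 (0.80%) had a larger SD, and 290 of all 22180 genes (1.31%) did. Signals of different probe sets do not rank transcript amounts, and the mean signal served here only to find probe sets of comparable brightness. The spread by group was uneven: 3, 4 and 5 of the 500 genes had a larger SD than Nnt in WT on chow, KO on chow and KO on HFD, whereas in WT on HFD 498 had a larger one and 2 a smaller one.

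**Figure D2:**
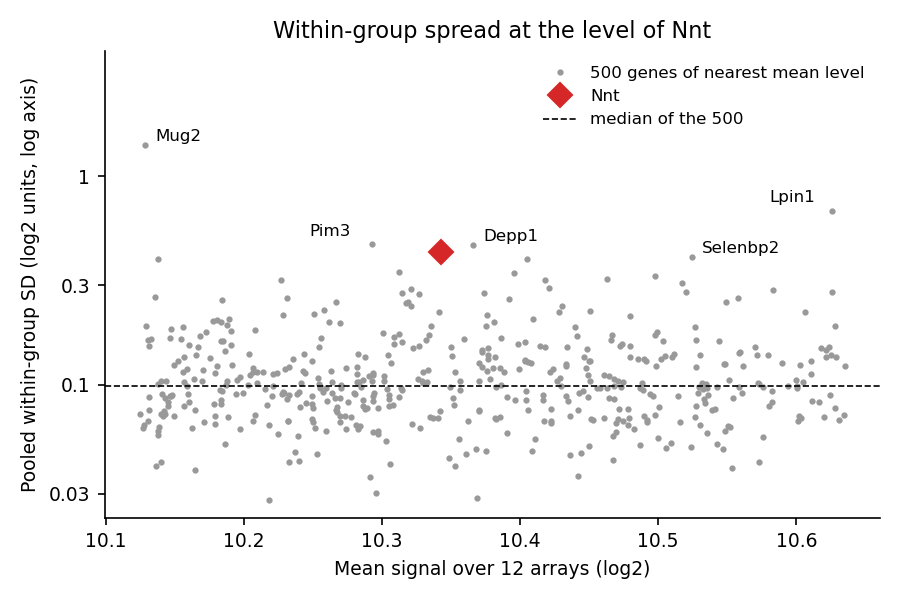
Pooled within-group SD (vertical, log axis, log2 units) against mean log2 signal (horizontal) for Nnt (red diamond) and the 500 genes of nearest mean signal (grey points), with their median SD as a dashed line. Nnt lies at 0.43, far above the median of 0.099, and only Mug2, Lpin1, Pim3 and Depp1 lie higher.

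The value of the spread depended on the displaced livers. When the SD was replaced by the median absolute deviation from the group median, Nnt stood at 0.012 and 466 of the 500 genes had a larger value. By its construction this measure hardly responds to 1 displaced liver in a group of 3, so it describes only the remaining livers. With WT chow 1 left out, 7 of the 500 genes had a larger SD than Nnt, and the number was 8 with either KO chow 1 or KO HFD 2 left out. It was 0 with WT chow 2 and 2 with WT chow 3 left out. With 200 or 2000 genes of nearest mean signal, 2 (1.00%) and 33 (1.65%) had a larger SD.

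Of the genes of widest spread, Mug2 and Lpin1 differed in how they read the low-Nnt livers. Mug2, a murinoglobulin protease inhibitor gene of mouse liver, had the largest SD (1.41). Mug2 signals on chow were 11.20, 11.07 and 8.74 for WT and 11.16, 7.78 and 7.77 for KO livers. Those on HFD were 11.93, 11.85 and 12.04 for WT against 8.75, 11.02 and 8.22 for KO livers. Mug2 thus separated KO chow 1 and KO HFD 2 from their mates, as Nnt did, but with the displaced liver on the high side, and it separated WT chow 3 where Nnt separated WT chow 1. Lpin1, a phosphatidate phosphatase and coregulator gene, had an SD of 0.68. On chow it read 9.06, 9.99 and 9.65 for WT and 10.49, 10.66 and 11.31 for KO livers. On HFD it read 12.23, 12.30 and 12.28 for WT and 9.52, 8.83 and 11.18 for KO livers. The lowest Lpin1 liver was thus the lowest Nnt liver in the 3 groups that held one, WT chow 1, KO chow 1 and KO HFD 2. However, KO chow 1 lay close to KO chow 2. In both KO groups the Lpin1 liver farthest from its mates was another, replicate 3, on the high side (11.31 on chow and 11.18 on HFD). The SD was 0.47 for the kinase gene Pim3 and 0.47 for Depp1. Depp1 was just above Nnt and Selenbp2, a selenium-binding protein gene, was just below it at 0.41.

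Genes with the most similar array pattern were looked for among 22179 others by Pearson's r over 12 arrays, after the mean of each group was subtracted. Since they are the extremes of so many values they are given as a description, and 32 genes exceeded 0.90 and 29 were below -0.90. The highest were Glipr1l1 (r = 0.97), ND3 (0.97), a mitochondrially encoded subunit of respiratory complex I, the pseudokinase gene Trib2 (0.96), the splicing factor gene Rbm25 (0.96) and Mllt10 (0.96). Their Spearman coefficients were 0.81, 0.88, 0.90, 0.85 and 0.83. The lowest were Entpd6 (r = -0.97), Mpzl1 (-0.96), Cfap20 (-0.95), Asb3 (-0.94) and Mrpl35 (-0.93), a mitochondrial ribosomal protein gene. Without KO HFD 2 and KO chow 1, the arrays farthest from the Nnt median, the 10 coefficients were 0.91 to 0.94 and -0.95 to -0.86. The arrays kept had also served to choose these genes, and WT chow 1 was among them, so these values are no independent check.

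Each of the 10 had a smaller within-group SD than Nnt, from 0.055 to 0.70 of it. The SD of ND3 was 0.024, or 0.055 of that of Nnt, with signals from 13.82 to 13.89. Mpzl1 moved most among the 10, with an SD of 0.31 and signals from 8.34 to 9.84, and Glipr1l1, at 0.25, was read between 4.30 and 5.01, below the array medians. Ranked by Spearman's coefficient, or by values with no group means removed, 1 of the 10 genes stayed among the 5 at its end in either case. Leaving out 1 array kept between 2 (without KO HFD 3) and 8 of them, and the number was 3 when KO HFD 2 or KO chow 1 was left out, 4 for KO HFD 1 or WT chow 3, 5 for KO chow 2 or WT chow 1, and 6 for WT HFD 3.

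Further genes reported to differ between C57BL/6 substrains in sequence, copy number or expression were taken from a list of 11, of which 9 were measured with a single symbol. Wdfy1, an endosomal adaptor gene, gave 6.18, 6.83 and 7.0 for WT livers and 6.90, 6.34 and 6.43 for KO livers on chow. On HFD it gave 7.30, 7.34 and 7.45 for WT and 6.50, 6.18 and 6.42 for KO livers. WT chow 1 and KO HFD 2 were the lowest Wdfy1 arrays of their groups, as they were for Nnt, whereas KO chow 1 was the highest of its group. Ide, the insulin-degrading enzyme gene, read 11.02 on KO HFD 3 and between 10.19 and 10.45 on the other 11 arrays. Fgfbp3, its neighbour in a segment of reported copy number variation, read 6.97 on KO HFD 3, inside its range of 6.75 to 7.27. Of the 3 livers with low Nnt, WT chow 1 was the lowest of its group for Fgfbp3 (6.91), and none was the lowest of its group for Ide.

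**Figure D3:**
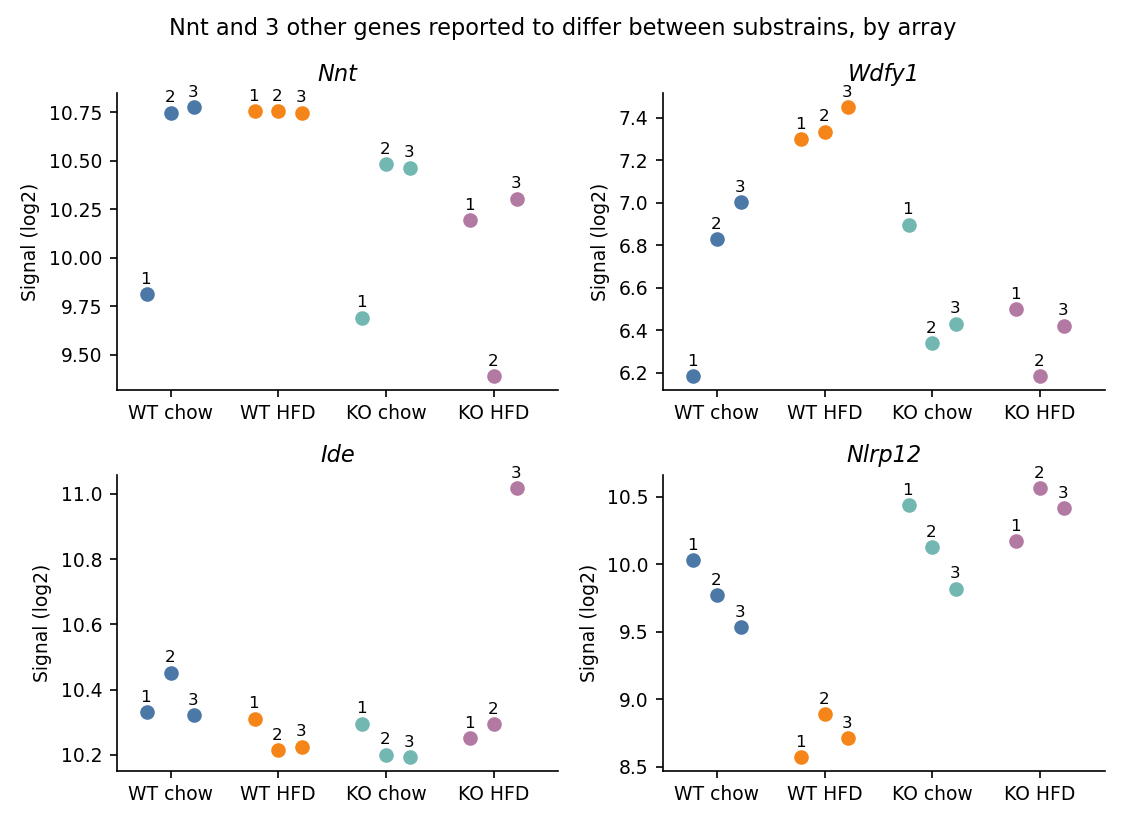
Log2 signals (vertical axes, each panel on its own scale) of Nnt, Wdfy1, Ide and Nlrp12 in the 12 livers, by group, with replicate numbers beside the points. The low Nnt livers are WT chow 1, KO chow 1 and KO HFD 2, while for Ide a single liver, KO HFD 3, lies at 11.02 above the rest.

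Between KO and WT on HFD, 3 of these 9 genes passed an adjusted p under 0.05 (limma, Benjamini-Hochberg over all 22180 genes), 1 higher and 2 lower, where 10.5% of all genes did, 3.89% higher and 6.62% lower. Nlrp12, an innate immune receptor gene of the NLR family, rose by 1.66 ± 0.17 (adjusted p = 0.000117), from 8.57, 8.89 and 8.71 in WT to 10.17, 10.57 and 10.42 in KO, without overlap. Wdfy1 fell by 0.99 ± 0.20 (adjusted p = 0.00695) and Dock2, a leukocyte exchange factor gene, fell by 0.46 ± 0.09 (adjusted p = 0.00814). All 3 kept these calls in every alternative run. Between HFD and chow in WT, where 6.96% of all genes passed, 4.02% higher and 2.94% lower, Nlrp12 fell by 1.05 ± 0.17 (adjusted p = 0.00332) and Dock2 rose by 0.39 ± 0.09 (adjusted p = 0.0296). The Dock2 call was lost without WT chow 2 (0.0703), WT chow 3 (0.112), WT HFD 1 (0.113) or WT HFD 2 (0.0789), and with only the arrays compared (0.0836). Macrophage markers, 5 of 5 measured, averaged 9.09 to 9.42 in WT on chow, 9.24 to 9.92 in WT on HFD, 9.02 to 9.35 in KO on chow and 9.21 to 9.42 in KO on HFD, and their part in the values of Nlrp12 and Dock2 was not tested. Stellate cell markers, 5 of 5 measured, were set apart in WT on HFD, at 8.12 to 8.44 against 7.41 to 7.52 in WT on chow, 7.60 to 7.71 in KO on chow and 7.43 to 7.68 in KO on HFD. Their part in the comparisons that rest on the WT HFD livers, those of Nnt and of the lists described next included, was not tested.

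The median of the 9 genes was -0.03 for KO minus WT on HFD and -0.01 for HFD minus chow in WT, against 0.00 for all genes in both. None of the 9 passed between KO and WT on chow or between HFD and chow in KO with limma, and 0 and 1 had an unadjusted p under 0.05. Of all genes, 0.00902% and 0.243% passed in these comparisons, and their share with an unadjusted p under 0.05 is not given here.

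Genes beside Nnt on chromosome 13 were described next, as the 5 measured protein-coding genes on each side in the RefSeq table (assembly GRCm38.p6), leaving out genes without a single-symbol probe set. Hmgcs1, a gene of cholesterol synthesis, had the widest spread of the 10 for its level, with 10.4% of 500 genes of its own mean signal having a larger SD, and Paip1, the first measured gene after Nnt, had 49.2%. Fgf10, the first before it, read 4.29 to 5.06, below the array medians, and had 40.8%. On chow Paip1 gave 9.98, 9.95 and 9.97 for WT and 10.07, 10.05 and 10.02 for KO livers. On HFD it gave 9.65, 9.62 and 9.72 for WT and 9.85, 10.13 and 10.26 for KO livers, with none of the 3 low-Nnt livers the lowest of its group. Hmgcs1 gave 9.85, 10.06 and 10.30 for WT and 9.81, 9.83 and 9.45 for KO livers on chow. On HFD Hmgcs1 gave 10.29, 10.26 and 10.12 for WT livers, and among KO livers 9.52 on KO HFD 2, 10.09 on KO HFD 3 and a value between these on KO HFD 1. WT chow 1 and KO HFD 2 were thus the lowest of their groups for Hmgcs1, and KO chow 1 was not. Any liver of 3 is the lowest of its group for many genes, and the share over all genes was not counted.

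Of these 10 neighbours, 2 rose between KO and WT on HFD and 8 did not pass, where 3.89% of all genes rose and 10.5% were called in either direction. 4833420G17Rik, the second after Nnt, rose by 0.75 ± 0.12 (limma adjusted p = 0.00185), from 8.79, 8.58 and 8.48 in WT to 9.22, 9.37 and 9.53 in KO. Paip1, a gene for a partner of the poly(A)-binding protein, rose by 0.42 ± 0.10 (adjusted p = 0.0183). The Paip1 call was lost without WT HFD 1 (0.0586), WT HFD 2 (0.0659), KO HFD 2 (0.066) or KO HFD 3 (0.0631), with the arrays centred on their medians (0.0618) and with only the arrays compared (0.0788). Between HFD and chow in WT, 4833420G17Rik alone of the 10 was called, with a fall of 0.64 ± 0.12 (limma adjusted p = 0.00767). Of all genes, 2.94% fell and 6.96% were called in that comparison. The median of the 10 was 0.03 for KO minus WT on HFD and -0.14 for HFD minus chow in WT, against 0.00 for all genes in each.

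The other genes of NADPH supply, peroxide reduction, NAD metabolism and proton leak were taken from 5 lists with 54 members, of which 50 were measured. G6pdx, Prdx5, Cd38 and Ucp2 were not analysed here. Between KO and WT on HFD, 2 of the 50 rose, 6 fell and 42 did not pass, that is 16.0% called where 10.5% of all genes were. The median difference was -0.14, against 0.00 over all genes. The values over all genes include dim probe sets and are not matched in signal to the 50. Between HFD and chow in WT, 2 rose and 1 fell (6.00%, against 6.96% of all genes), with a median of 0.07. The split was 4 and 1 with quantile normalization and 5 and 1 with arrays centred on their medians. The 3 calls became 1 without WT chow 3, WT HFD 2 or WT HFD 3, and 7 without KO HFD 1. Between KO and WT on chow, and between HFD and chow in KO, 0 of 50 passed with limma, where 0.00902% and 0.243% of all genes did. In each, 7 had an unadjusted p under 0.05, and the share of all genes at that bound is not given here. In the interaction 1 rose and 3 fell (8.00%, against 3.53% of all genes, 1.43% higher and 2.10% lower). For the diet comparison in KO the 0 became 1 without WT chow 2, among genes above the median signal and with trend and robust settings. The gene was Idh2 each time, at a limma adjusted p of 0.0467, 0.0247 and 0.011. In the main fit Idh2 stood at -0.57 ± 0.11 there (adjusted p = 0.0677).

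**Figure D4:**
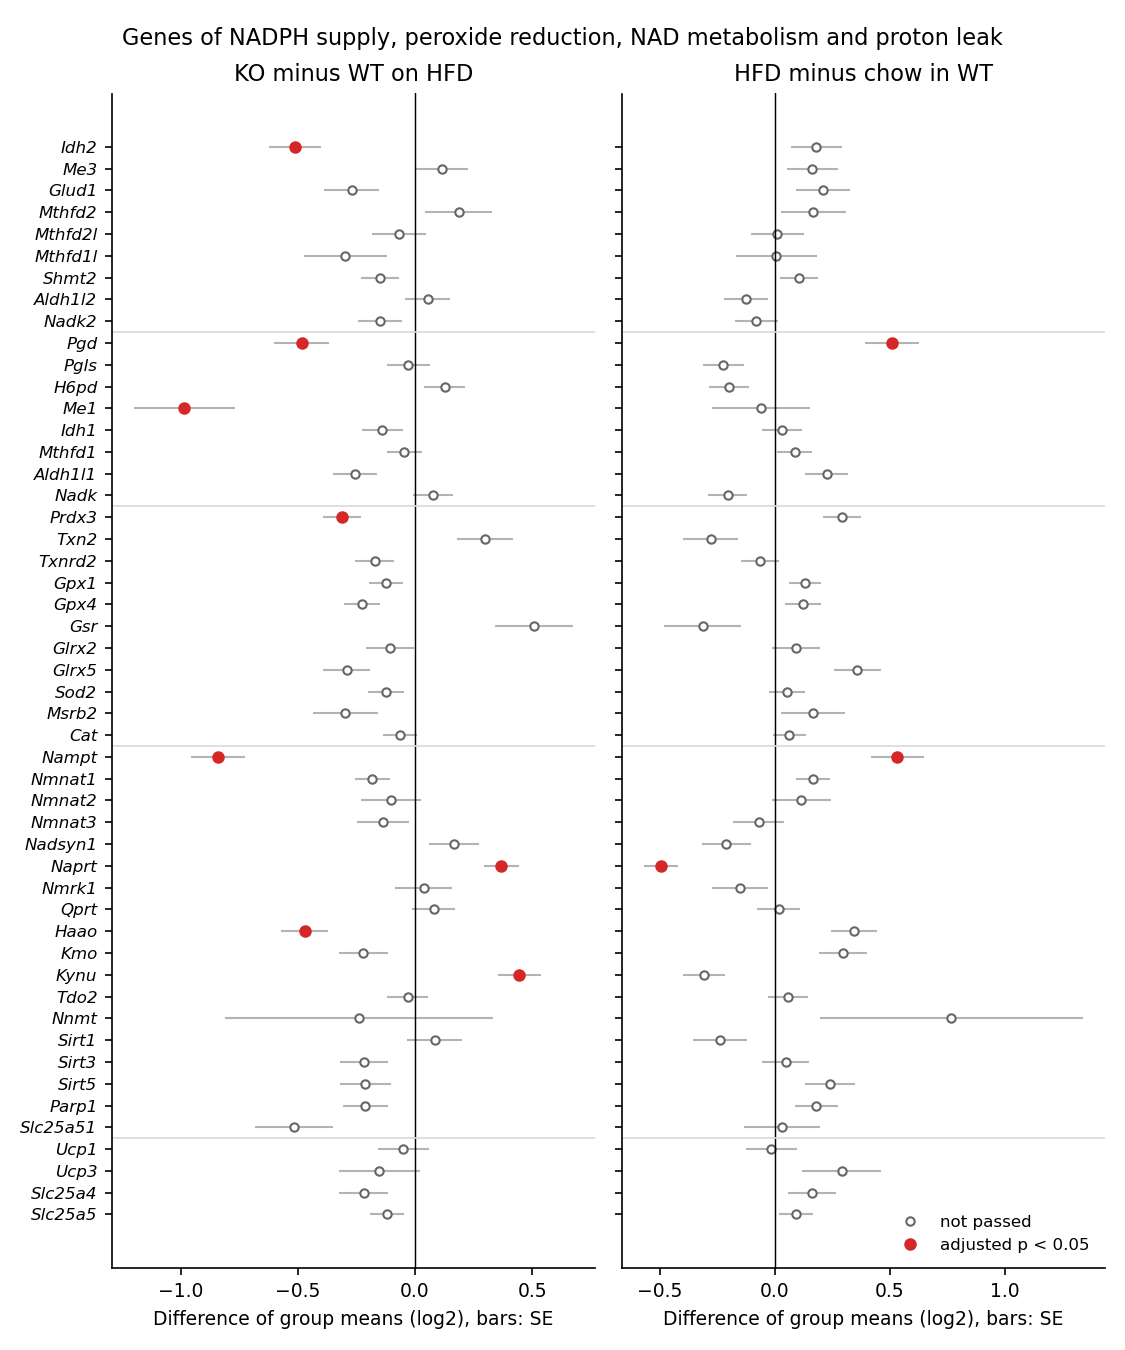
Log2 difference of group means (horizontal, bars are the SE of the fit) for the 50 measured genes of the 5 lists, for KO minus WT on HFD (left) and HFD minus chow in WT (right); filled red points passed an adjusted p under 0.05 and open points did not. Grey lines divide the lists, from the top NADPH supply of the matrix, NADPH supply of the cytosol and endoplasmic reticulum, peroxide and thiol reduction, NAD metabolism and proton leak.

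Among 9 sources of NADPH or of its precursor in the matrix, 1 fell between KO and WT on HFD and 8 did not pass. This share, 11.1%, was near the 10.5% of all genes called. Idh2, the mitochondrial NADP-dependent isocitrate dehydrogenase, read 11.18, 11.03 and 11.16 in WT and 10.58, 10.74 and 10.51 in KO, a fall of 0.51 ± 0.11 (limma adjusted p = 0.0108). On chow it read 10.90, 11.14 and 10.79 in WT and 11.03, 11.23 and 11.28 in KO. The groups were separate on HFD and overlapped on chow. Glud1, the glutamate dehydrogenase, differed by -0.27 ± 0.12 on HFD (limma adjusted p = 0.185). The remaining members also did not pass. They included the mitochondrial NAD kinase gene Nadk2, the malic enzyme gene Me3 and the folate genes Shmt2 and Mthfd2. The mean signals of Me3 (5.68) and Mthfd2 (5.65) lay near the array medians, and that of Aldh1l2 (4.97) lay below them. Of the low-Nnt livers, KO chow 1 was also the lowest of its group for Idh2, whereas WT chow 1 lay between its mates and KO HFD 2 was the highest of its group.

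Among 8 measured genes of NADPH supply in the cytosol and endoplasmic reticulum, 2 fell and 6 did not pass, where 6.62% of all genes fell and 10.5% were called. Me1, the cytosolic malic enzyme, fell by 0.98 ± 0.21 (limma adjusted p = 0.0117), from 10.83, 10.70 and 10.96 in WT to 9.71, 10.37 and 9.45 in KO. Me1 was also the member with the widest spread of these lists after Nnmt, with an SD of 0.31. Pgd, the phosphogluconate dehydrogenase of the pentose phosphate pathway, fell by 0.48 ± 0.12 (adjusted p = 0.0215), from 10.03, 10.15 and 10.32 to 9.77, 9.78 and 9.50. That call was lost without WT HFD 2 (0.0576), WT HFD 3 (0.0879) or KO HFD 3 (0.078). In WT, Pgd rose from chow to HFD by 0.51 ± 0.12 (adjusted p = 0.0225), a call lost without WT chow 2 (0.0745), WT chow 3 (0.0621), WT HFD 2 (0.0662) or WT HFD 3 (0.0924) and with only the arrays compared (0.0602).

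Among 11 measured genes of peroxide and thiol reduction, 1 fell and 10 did not pass. This share, 9.09%, was near the 10.5% of all genes called. Prdx3, the mitochondrial peroxiredoxin that removes hydrogen peroxide with electrons from the thioredoxin system, read 11.55, 11.58 and 11.58 in WT on HFD and 11.19, 11.29 and 11.30 in KO. The fall was 0.31 ± 0.08 (limma adjusted p = 0.0301), and the call was lost without any one of the 6 HFD arrays, at 0.0531 without KO HFD 3 to 0.0865 without WT HFD 2. It was also lost with only the arrays compared (0.0699). Gsr, the glutathione reductase, stood at 0.51 ± 0.17 (adjusted p = 0.0762) and passed without KO HFD 1 (0.0224) and among genes above the median signal (0.0375), with KO HFD 3 at 10.99 and the other 11 arrays between 9.91 and 10.45. The glutathione peroxidase gene Gpx1 varied little, with an SD of 0.039, and Sod2, the superoxide dismutase of the matrix, read 12.26 to 12.49 over the 12 arrays. Gpx1, at 11.47 on WT chow 1, 11.46 on KO chow 1 and 11.52 on KO HFD 2, did not set the low-Nnt livers apart.

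Among 18 measured genes of NAD synthesis and use, 2 rose, 2 fell and 14 did not pass between KO and WT on HFD, where 3.89% of all genes rose and 6.62% fell. Nampt, the rate-limiting enzyme of NAD salvage from nicotinamide, fell by 0.84 ± 0.11 (limma adjusted p = 0.000747), from 10.10, 10.31 and 10.24 in WT to 9.34, 9.28 and 9.52 in KO. Naprt, which starts NAD synthesis from nicotinic acid, rose by 0.37 ± 0.07 (adjusted p = 0.00739), from 9.30, 9.20 and 9.29 to 9.59, 9.68 and 9.63. Of the tryptophan route, Haao fell by 0.47 ± 0.10 (adjusted p = 0.0104) and Kynu, the kynureninase, rose by 0.45 ± 0.09 (adjusted p = 0.00882), whereas Tdo2, Kmo and Qprt did not pass. These 4 calls held in every alternative run.

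In WT, Nampt rose from chow to HFD by 0.53 ± 0.11 (limma adjusted p = 0.0153) and Naprt fell by 0.49 ± 0.07 (adjusted p = 0.00215). The Nampt call was lost without WT chow 3 (0.0629), WT HFD 2 (0.065) or WT HFD 3 (0.0545). Both comparisons use the WT HFD arrays. Slc25a51, the NAD carrier of the inner membrane, stood at -0.52 ± 0.17 between KO and WT on HFD (adjusted p = 0.0706) and passed without WT HFD 2 (0.0399), with centring (0.0442), among genes above the median signal (0.0344), with trend and robust settings (0.0419) and with the replicate block (0.0331). Of the deacylase genes of the sirtuin family, Sirt1, Sirt3 and Sirt5 did not pass.

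None of 4 measured genes of proton leak, which draws on the same gradient as the transhydrogenase, passed in any of the 5 comparisons with limma. In the interaction 1 had an unadjusted p under 0.05, and in the others 0 had. The share of all genes at that bound is not given here. Slc25a5, an ADP/ATP carrier gene, read 13.08 to 13.27 over the 12 arrays. Ucp1, the brown fat uncoupling protein gene, read 4.81 to 5.24, below the array medians. Ucp3 also read below them, at 4.37 to 5.08.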

How the data were processed

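Total RNA from 12 livers, 1 mouse per array, was labelled with biotin, per the labels. The authors deposited log2 signals per probe set; the submitters' processing notes name the package oligo, and the sources used here give neither its version nor the background correction and normalization, which set every level. The deposited values were not rescaled. Of 41345 probe sets 23521 had 1 symbol (23328 matched by gene number to RefSeq names of assembly GRCm38.p6), 1814 had several and 16010 none; genes took the probe set of highest mean. One limma model (version 3.58.1, R 4.3.3) held all 4 groups, with Benjamini-Hochberg adjustment over 22180 genes in 5 comparisons and no filter on dim genes. Every SE given is from this model, with the variance of each gene moderated towards that of all genes. The fit was also run on simulated data with known changes between KO and WT on HFD. It called 34.3% of 67 genes changed by 0.5 (log2), 86.6% of 67 changed by 1 and 93.9% of 66 changed by 2. The other 21980 genes were simulated without change. On the real arrays 10.5% of all genes passed in this comparison, so these shares need not hold for the comparisons made here. A gene that did not pass is thus not shown to be unchanged. Genes of wide spread were among those missed. The recovery to be reached was lowered after a first run had missed some of them.

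Nnt, the lists, the tests and the alternatives were chosen with earlier results of these data known. Named were Nnt and Ahnak; list members that passed or had the smallest p; the 5 measured protein-coding genes on each side of Nnt; the 5 highest and 5 lowest correlations with Nnt, without gene models; and the 5 widest-spread genes of similar mean with those next to Nnt. Members shown for comparison with the low-Nnt livers, and the remarks on which arrays are displaced, were chosen after their values were seen. How often these livers are the lowest of their groups over all genes was not counted. The alternatives were quantile normalization, centring on array medians, a replicate block, trend and robust eBayes, genes above the median signal, probe set means, only the arrays compared, other windows and measures of spread, and leaving out each array.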

Additional observations from a re-analysis of the deposited data

Results flagged for a closer look

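The genotype difference itself differed between the diets for 7 genes of the lists, by the interaction (KO minus WT on HFD, less KO minus WT on chow) in limma, at an adjusted p under 0.05, where 3.53% of all genes passed. Of the 50 measured genes of NADPH, NAD, peroxide and proton leak these were Idh2, at -0.749 (log2, adjusted p = 0.0216), Aldh1l1, a cytosolic folate dehydrogenase gene, at -0.548 (adjusted p = 0.0411), Nampt at -0.799 (adjusted p = 0.0189) and Naprt at 0.487 (adjusted p = 0.0255). Leaving out KO chow 3 ended all 4 calls (0), and leaving out WT HFD 1 lowered the number to 2. It was 1 when KO chow 2, KO HFD 2, WT chow 3, WT HFD 2 or WT HFD 3 was left out. The number was 3 without WT chow 1, WT chow 2, KO chow 1 or KO HFD 3, and 5 without KO HFD 1. Centred on array medians, 0 rose and 3 fell, against 1 and 3 as deposited.

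Of the genes reported to differ between substrains, Nlrp12 stood at 1.31 (limma adjusted p = 0.0126) and Dock2 at -0.615 (adjusted p = 0.0272). The Nlrp12 call held in every alternative run. The Dock2 call was lost without WT chow 2 or 3, WT HFD 1 or 2, KO chow 1, 2 or 3, or KO HFD 2, at an adjusted p of 0.0511 to 0.0712. Of the neighbours of Nnt, 4833420G17Rik stood at 0.813 (adjusted p = 0.0214), and did not pass when KO chow 2 (0.0558), KO chow 3 (0.0558), WT HFD 2 (0.0581) or WT HFD 3 (0.0574) was left out. Nnt itself was not tested.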

How the results depend on the processing

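The 4 Nnt differences moved by less than the pooled SD under each alternative; with 1 array left out they ranged from -0.55 to 0.03 for KO minus WT on chow, -0.96 to -0.51 on HFD, -0.01 to 0.47 for HFD minus chow in WT and -0.51 to 0.04 in KO. The pooled SD of Nnt ranged from 0.36 to 0.47 with 1 array left out. The median absolute deviation, which 1 displaced liver in a group hardly moves, was 0.012. The number of genes of similar mean with a larger SD, 4 of 500, was 0 to 8 with 1 array left out, 466 by the median absolute deviation, 2 among 200 and 33 among 2000 genes. Of the 10 genes most like Nnt, 2 to 8 stayed with 1 array left out (chosen after seeing the data), 1 by Spearman's coefficient and 1 with no group means removed.

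The 8 calls of the 50 list genes for KO minus WT on HFD were 13 among genes above the median signal and 6 to 9 with 1 array left out. The 3 calls for HFD minus chow in WT were 5 with quantile normalization, 6 with centring, 7 among genes above the median signal, 8 with trend and robust settings and 1 to 7 with 1 array left out. For HFD minus chow in KO the 0 became 1 among genes above the median signal and with trend and robust settings, and was 0 to 1 with 1 array left out; for KO minus WT on chow it stayed 0 with 1 array left out. The 4 calls of the interaction were 0 to 5 with 1 array left out. Some of these settings also use fewer genes or arrays, and the cause of these changes was not tested.

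With the replicate number as a block, 0 and 8 calls were made for KO minus WT on chow and on HFD, 3 and 0 for HFD minus chow in WT and in KO, and 2 in place of 4 for the interaction. The labels tie the numbers to no litter or batch, and same-numbered arrays of different groups did not deviate together (18 pairs, r from -0.06 to 0.08). The Prdx3 call on HFD was lost (0.0551), as were Aldh1l1 (0.0789) and Naprt (0.0518) in the interaction. Over the single genes called in at least 1 setting, 70 results lost a call, 53 gained one and 703 did neither, with 0 reversed. No other probe set of Nnt was tried, as 1 carries the symbol. The number of arrays limits these values. Fgf10, Glipr1l1, Ucp1, Ucp3 and Aldh1l2 are among the genes that read below the array medians.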

Other observations

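Among the 69 measured genes of the lists and the neighbours of Nnt, 3 were in the top 5% of within-group spread for their own mean signal, namely Nnmt, Mmrn1 and Me1. Nnmt, which methylates nicotinamide and so takes it out of NAD salvage, read 9.15, 6.00 and 8.64 in WT on chow, and between 8.31 and 9.38 on the other 9 arrays. A single liver, WT chow 2, was displaced, and it was a liver with high Nnt (10.75).

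Mmrn1, which encodes a multimerin and lies in a segment reported as deleted in one C57BL/6 substrain, gave 5.83, 5.47 and 4.89 for WT and 5.67, 6.14 and 5.64 for KO livers on chow. On HFD it gave 6.56, 5.40 and 5.46 for WT and 4.99, 5.85 and 6.01 for KO livers. Most of these values lie near the array medians. It did not pass in any of the 5 comparisons with limma, where 0 values had an unadjusted p under 0.05. Its highest liver, WT HFD 1, and its lowest, WT chow 3, were not among the low-Nnt livers.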
